A study of Bos taurus with 18 samples.

Results

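The genes described here encode the proteins of the cytosolic ribosome. They were chosen by symbol alone: RPL or RPS followed by a number, with an optional final letter, L, X or Y, together with RPLP0, RPLP1, RPLP2 and RPSA, and without the RPS6K kinases. This gave 78 of the 16989 gene symbols counted, of which 47 belong to the large subunit and 31 to the small subunit. All 78 symbols matched an entry of the RefSeq gene table of the ARS-UCD2.0 assembly, which supplied names only.

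The mRNA came from bone marrow-derived mesenchymal stem cells (MSCs) of juvenile cows. The 17 clones, named A to Q, were each grown from 1 cell, and 1 heterogeneous population was a mixture of many cells. All were taken at passage 1 from monolayer culture in basal media (high-glucose DMEM with serum and antibiotics), and no library was treated. Each clone and the heterogeneous population was sequenced once. Every p-value below therefore rests on the spread between libraries, in which technical and clonal differences cannot be told apart. Where 1 library was compared with the others, it was assumed to vary as they do.

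A ribosome joins a small subunit, which binds the mRNA and decodes it, to a large subunit, which forms the peptide bond. Each subunit is built in the nucleolus on ribosomal RNA from proteins that are needed in equal numbers, apart from the acidic proteins of the stalk. The mRNAs of these proteins are abundant in growing cells and carry a terminal oligopyrimidine tract at their start, through which mTOR signalling controls their translation. Some of the proteins also act outside the ribosome, as RPL5 and RPL11 do when they bind MDM2 and so spare p53.

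Clones held 11484812 to 18458157 reads on genes and the heterogeneous population held 16092501. All 13 MSC markers examined, among them THY1, ENG, COL1A1 and VIM, had reads. Their summed level was 52227 to 221640 CPM (read counts scaled to library size, here with the trimmed mean of M-values, TMM) in the clones and 213582 CPM in the heterogeneous population. The summed level of 14 macrophage markers was 3.34 to 8.62 CPM in the clones and 176 CPM in the heterogeneous population, where each of the 14 exceeded every clone. The endothelial, adipocyte, osteoblast and erythroid lists had 1, 0, 0 and 0 genes above every clone in that library, and CFD, CDH5, HBA and HBB had 0 reads in every library.

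Reads on ribosomal protein genes made up 2.65% of the reads on genes in clone N, which was the lowest, and 3.78% in clone I, which was the highest. The exact binomial 95% intervals were 2.65% to 2.66% and 3.77% to 3.79%, and like every count limit given here they cover counting error only. The median clone was at 3.07% and the mean was 3.12% ± 0.294 (SD, n = 17). The heterogeneous population was at 3.28%, with 4 clones above it, so it lay inside the range of the clones. In bulk RNA, fewer cells of a type and less RNA per cell cannot be told apart.

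**Figure D1:**
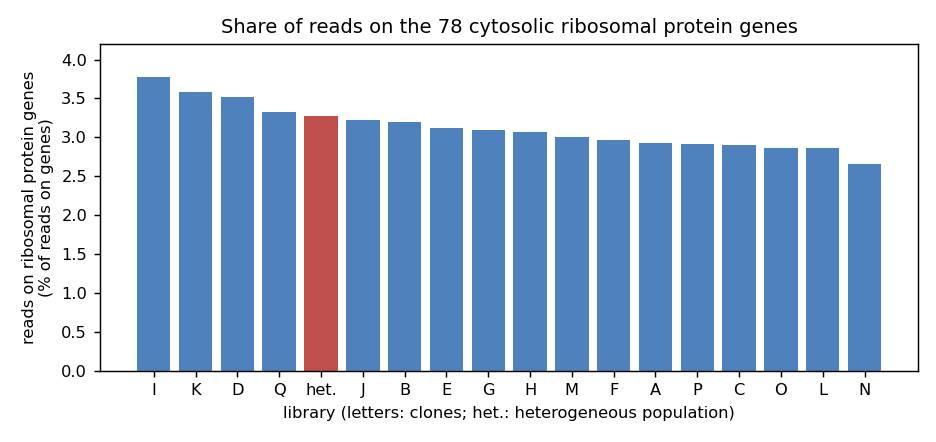
Reads on the 78 cytosolic ribosomal protein genes as a percent of reads on genes (y axis) in each library (x axis, ordered from high to low; blue bars are clones, the red bar is the heterogeneous population). The bars fall from 3.78% in clone I to 2.65% in clone N, and the heterogeneous population at 3.28% has 4 clones above it.

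Reads on the large subunit exceeded those on the small subunit by little in every clone, with a ratio of 1.004 to 1.062. The ratio in the heterogeneous population was 1.058. The reads were concentrated in a few genes. RPLP0, which forms the base of the stalk, took 8.90% of all member reads over the clones. RPSA, the small subunit protein that is also known as the laminin receptor, took 7.69%. RPS2, RPL13A and RPS3 followed with 5.41%, 4.08% and 3.99%, and these 5 genes together held 30.1% of the member reads. Reads were not divided by gene length, so these shares do not rank the genes by the number of mRNA molecules.

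At the other end, 3 genes had 0 reads in every library. These were RPL39, RPL7 and RPLP2, the last of which encodes an acidic stalk protein that pairs with RPLP1. A count of 0 allowed up to 3 reads, or 0.163 to 0.261 CPM in a clone. RPL10L, RPL3L and RPS25 had at most 2, 5 and 3 reads in any library. Genes with 0 reads in every library made up 3.85% of the ribosomal protein genes and 14.998% of all gene symbols. RPL10L and RPL3L are tissue-restricted copies of RPL10 and RPL3, known from testis and from muscle, whereas the other 4 encode core subunits. RPL39, RPL7, RPLP2 and RPS25 are therefore listed at or near 0 in the counts, which is not a measurement that their mRNA was absent. RPS27 and RPL41 were not analysed here.

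A further 6 genes had few reads, with no more than 300 in any library. RPL17 had 19 to 36 reads per clone, RPL23A 11 to 43, RPS15A 15 to 65 and RPS27L 78 to 240, and RPL35A and RPL6 were the remaining 2. The other 66 genes had over 300 reads in at least 1 library. The 72 genes with a mean above 1 CPM in the clones are those used below. Ribosomal protein genes are known for near-identical copies in the genome, between which counting could split or drop reads, so their levels are uncertain by more than the counting error.

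The question for the clones was how far the mRNA of the translation machinery differed between populations grown from single cells. The spread was taken as the SD over the 17 clones of log2(CPM + 0.25) with TMM scaling. Its median was 0.209 over the 72 ribosomal protein genes and 0.308 over all 10701 genes above 1 CPM. Of the 72 genes, 69 had a smaller spread than the median gene. In 67 of 72 (93.06%) the highest clone was less than 2 times the lowest, compared with 42.26% of all genes. Restricted to genes above 100 CPM, the medians were 0.207 (53 genes) and 0.298 (1609 genes). The large and small subunits had medians of 0.209 and 0.212. A spread below that of all genes was not particular to these genes. The median was 0.222 over 36 translation factors, 0.230 over 70 mitochondrial ribosomal protein genes and 0.279 over 51 ribosome biogenesis genes. With library totals in place of TMM scaling, the medians were 0.164 for the ribosomal protein genes and 0.330 for all genes.

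RPL15, a core protein of the large subunit, was the steadiest, at 53.9 CPM in the lowest clone, 63.9 in the median clone and 74.4 in the highest, with an SD of 0.11. RPL24, which sits at the face between the subunits, ranged from 294 to 388 CPM around a median of 334, also with an SD of 0.11. RPS15, RPL34 and RPS10 followed, each with an SD of 0.14. All 5 differed by at most 1.42-fold between any pair of clones, and their counting SDs of 0.016 to 0.047 were smaller than their spread.

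The largest spread was that of RPS15A, a small subunit protein, which ranged from 1.12 CPM in clone P through a median of 2.38 to 4.32 CPM in clone G. Its SD was 0.52 where counting alone would give 0.24. RPL23A, which lies at the exit of the peptide tunnel, ranged from 0.995 CPM in clone A to 2.65 CPM in clone L with an SD of 0.36, and counting alone would give 0.29. Both rest on fewer than 70 reads per clone. Among well counted genes, RPS28 varied most, from 94.3 CPM in clone N through a median of 162 to 206 CPM in clone D (SD 0.34). RPLP0 ranged from 1848 CPM in clone L through 2907 to 3751 CPM in clone D (SD 0.30). RPS18, at the head of the small subunit, ranged from 639 CPM in clone N through 1048 to 1256 CPM in clone E (SD 0.29).

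RPSA ranged from 1678 CPM in clone N through 2519 to 2755 CPM in clone E. RPL5 ranged from 163 CPM in clone N through 199 to 236 CPM in clone I, and RPL11 from 72.9 CPM in clone N through 97.2 to 115 CPM in clone I. Clones N and I were thus the lowest and the highest for both p53-linked large subunit proteins. Clone N was also the lowest for 37 of all 72 genes, and clone I the highest for 21. With library totals clone I stayed the highest for both. The lowest was then clone M for RPL5 (175 CPM) and clone P for RPL11 (81.5 CPM). RPLP1 ranged from 369 CPM in clone L through 542 to 620 CPM in clone I, and RPS6, the small subunit protein phosphorylated downstream of mTOR, from 65.6 CPM in clone L through 86.3 to 101 CPM in clone Q.

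**Figure D2:**
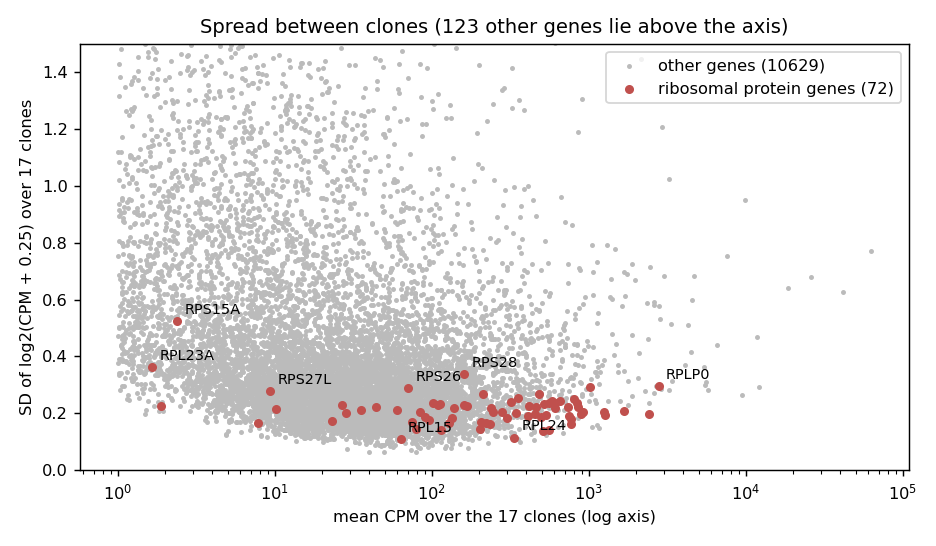
Mean CPM over the 17 clones (x axis, log scale) and the SD of log2(CPM + 0.25) over them (y axis) for the 72 ribosomal protein genes (red) and 10629 other genes (grey), of which 123 lie above the axis. The red points lie low in the grey cloud, with a median SD of 0.209 against 0.308 for all genes, and RPS15A at 0.52 is the highest of them.

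The ribosomal protein genes varied together. Over the 17 clones the median Pearson r between 2 of them was 0.714 (0.552 with library totals), where the median over all pairs of genes was -0.00069. An r above 0.5 was found for 71.1% of their pairs and for 12.1% of all pairs. The first principal component of the 72 genes held 67.5% of their variance and the second held 13.3%. These are descriptions over 17 libraries that share their scaling.

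When each gene was set against the mean of the other 71, 63 had an r above 0.5 and the median r was 0.877. The r was negative for 4 genes, with -0.74 for RPS27L, -0.59 for RPL23A, -0.19 for RPL17 and -0.15 for RPS15A. RPL17, RPL23A and RPS15A are among the genes with few reads. RPS27L, a p53-inducible copy of RPS27, was at 6.95 CPM in clone D, 8.92 CPM in the median clone and 15.3 CPM in clone N, the clone in which most other ribosomal protein genes were lowest.

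Among genes outside the list, GNB2L1, which encodes the 40S-bound scaffold RACK1, followed the mean of the ribosomal protein genes most closely (r = 0.945, n = 17). It was followed by SSR4, a subunit of the translocon-associated complex of the endoplasmic reticulum, at 0.939. COX14, an assembly factor of cytochrome c oxidase, was at 0.930, WARS, the tryptophanyl-tRNA synthetase, at 0.919, and EEF1A1, the elongation factor that brings aminoacyl-tRNA to the ribosome, at 0.917.

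**Figure D3:**
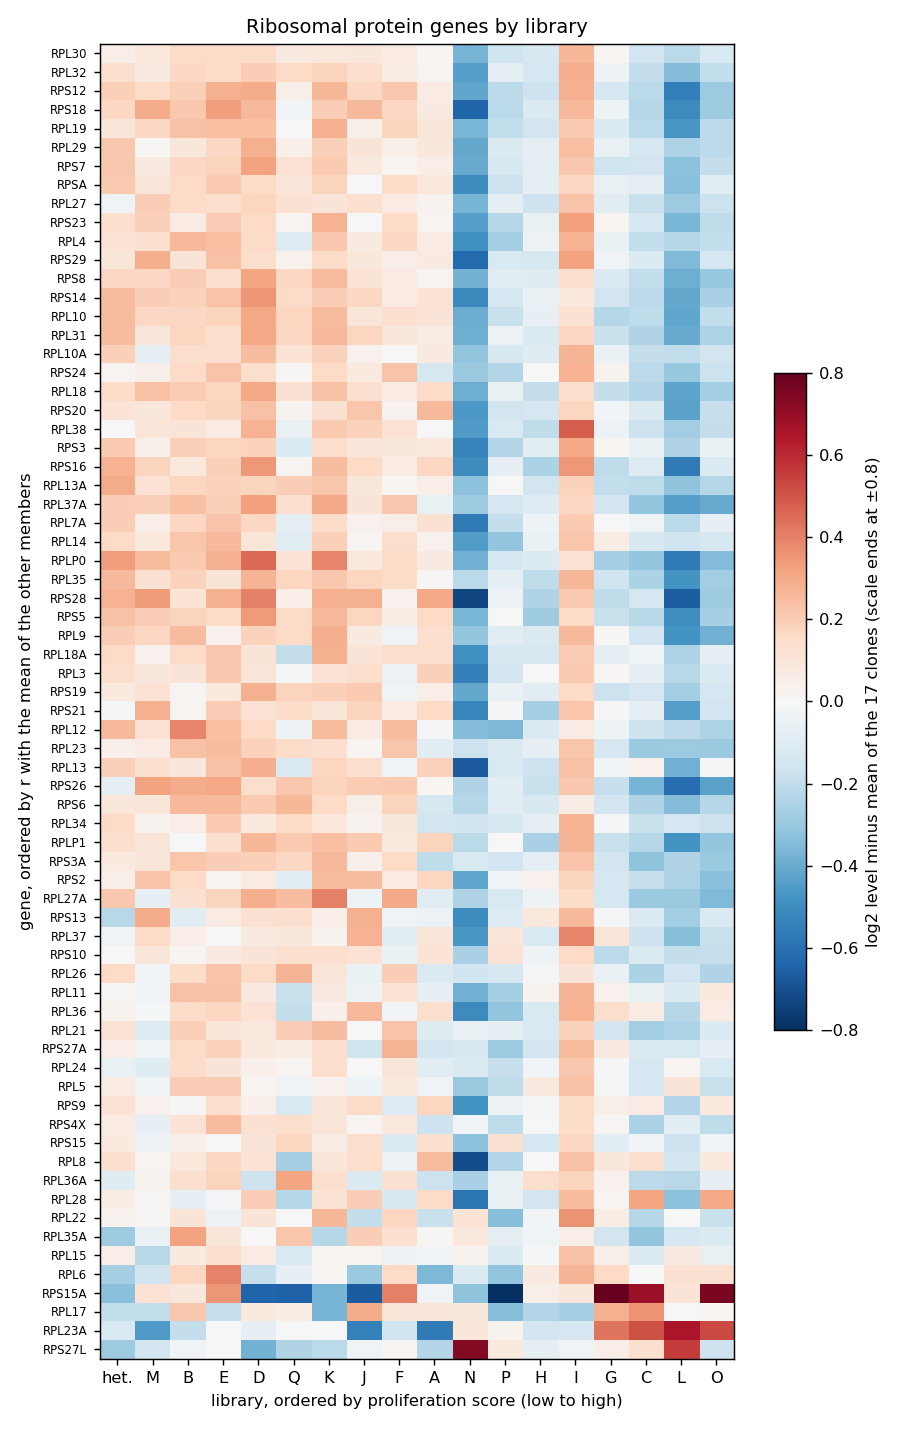
Level of the ribosomal protein genes (vertical axis, ordered by r with the mean of the others) in each library (horizontal axis, ordered by proliferation score from low to high), as log2(CPM + 0.25) minus the mean of the 17 clones, red for higher and blue for lower. Most genes are blue in clones L and N and red in clones D, E and I, and RPS27L, at the bottom with r = -0.74, is red in clone N.

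The mean level of the 72 genes, relative to the mean of the clones on the log2 scale, was highest in clones I (0.20), E (0.17) and D (0.15). It was lowest in clones N (-0.33) and L (-0.26). Clone N was the lowest clone for 37 of the 72 genes and clone L for 17, while clone I was the highest for 21 and clone D for 16. With library totals the same mean was 0.29 in clone I, -0.15 in clone N and -0.05 in clone L. A change of scaling moves all genes of a library by about the same amount, so these shifts are not particular to the ribosomal protein genes. The sign changed between the scalings in 5 clones. Clones A, E, F and M were at 0.02, 0.17, 0.09 and 0.08 with TMM scaling and at -0.14, -0.01, -0.06 and -0.09 with library totals, and clone G was at -0.04 and then at 0.05.

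When each clone was compared with the other 16 by edgeR's quasi-likelihood test, no ribosomal protein gene passed a Benjamini-Hochberg adjusted p of 0.05 in any of the 17 comparisons, which over all genes together called 90 (0.045%). In clone N, where most calls over all genes were made, 76 genes were higher and 10 lower, which is 0.731% of the 11761 tested. At an unadjusted p under 0.05 there were 39 results over the 17 comparisons, 35 lower and 4 higher, against 4.4% of all genes. Of these, 25 were in clone N, 12 in clone L and 1 each in clones I and Q. RPL38 was 0.50 higher on the log2 scale in clone I (SE 0.20), where 1.92% of all genes had such a p. In clone Q 5.93% of all genes had one.

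The 25 genes in clone N were 34.7% of the 72, where 16.5% of all genes had an unadjusted p under 0.05. The median log2 difference of the ribosomal protein genes was -0.38 in clone N, compared with -0.03 over all genes. RPL8 had the smallest p (log2 difference -0.72, SE 0.19, edgeR adjusted p = 0.0848). RPL7A, RPL13 and RPL3, also of the large subunit, had differences of -0.57, -0.68 and -0.55, and RPSA one of -0.50. The single gene in the other direction was RPS27L, at 0.82 (SE 0.23, edgeR adjusted p = 0.0945). DESeq2 called 9 ribosomal protein genes in clone N and none in any other clone, against 2.98% of all genes: RPL13, RPL3, RPL7A, RPL8, RPS29, RPS3, RPS9 and RPSA were lower, with RPL8 at -0.74 (SE 0.17, DESeq2 adjusted p = 0.00269), and RPS27L was higher at 0.80 (DESeq2 adjusted p = 0.0489).

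Other lists also had values away from 0 in clone N. The 71 mitochondrial ribosomal protein genes had a median of -0.28 and the 36 translation factors one of -0.36, with no call. The 12 tested p53 targets had a median of 0.15 with no call, and the share of them at an unadjusted p under 0.05 (2 of 12) was near that of all genes. Cell type markers also differed in this clone, without a common direction. The median log2 difference was 2.18 for the adipocyte, 1.17 for the endothelial and 0.22 for the MSC markers. The summed level of the adipocyte markers was 119 CPM in clone N, where the other 16 clones had 10.2 to 34.9 CPM, and FABP4, a fatty acid carrier of adipocytes, was called higher (log2 difference 3.61, SE 0.79, edgeR adjusted p = 0.0389). The MSC markers summed to 52227 CPM, below every other clone (65191 to 221640 CPM), with 3 of 13 higher and 2 lower at an unadjusted p under 0.05 and none called. The endothelial markers summed to 8.49 CPM against 1.69 to 7.09 CPM. The 6 osteoblast markers summed to 1407 CPM, inside the 365 to 1699 CPM of the other clones. Their median log2 difference was -3.87, with wide errors for the largest differences, such as IBSP at -6.48 (SE 4.71). SPP1 alone among them was higher, at 0.70 (SE 0.59). The part of these in the lower ribosomal protein levels was not tested.

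In clone L the ribosomal protein genes had a median of -0.32, and 12 of them (16.7%, where all genes had 8.56%) had an unadjusted p under 0.05. RPS26 was the one with the smallest p (-0.67, SE 0.27), and RPS27L was again the one in the other direction (0.58, SE 0.27). These values used TMM scaling, where the median over all genes in clone L was -0.05. With library totals the mean level of the ribosomal protein genes in clone L was also -0.05. The change of scaling moves all genes of that library by about the same amount. The gap between the ribosomal protein genes and other genes in it therefore stays nearly the same.

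The libraries of clones N and L also had the largest shares of reads outside genes, at 26.8% and 24.8% of the reads in their files, where the other 15 clones had 18.8% to 22.7%. Over the 17 clones the mean level of the ribosomal protein genes had a Pearson r of -0.741 with that share and a Spearman rho of -0.534. Without clones L and N the r was -0.387 (n = 15), so the relation rested largely on those libraries. The levels used TMM scaling, and with library totals they were -0.15 in clone N and -0.05 in clone L. The part of the reads outside genes in the lower levels was not tested.

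**Figure D4:**
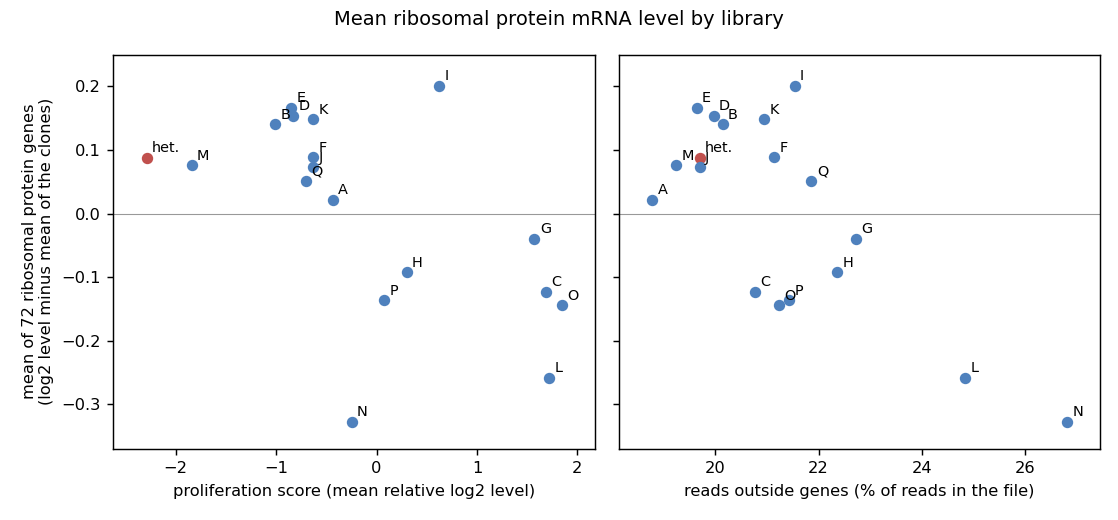
Mean level of the 72 ribosomal protein genes (y axis, log2 level minus the mean of the clones) against the proliferation score (left, x axis) and against the percent of reads outside genes (right, x axis), with blue points for clones and a red point for the heterogeneous population. Clones N (-0.33) and L (-0.26) lie lowest and furthest to the right in the right panel, and clones C, G, L and O form a separate set at high scores in the left panel.

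The heterogeneous population was compared with the 17 clones to ask whether a mixture of cells expressed these genes at another level. None of the 72 genes was called by edgeR, where 1.22% of all genes were, 144 higher and 1 lower. None had an unadjusted p under 0.05 either, against 7.68% of all genes, and DESeq2 and limma called none. The median log2 difference was 0.10 for the ribosomal protein genes and -0.04 for all genes. With library totals the medians were 0.02 and -0.12. Over all genes 53.5% of the differences were negative, while 56 of the 72 differences of the ribosomal protein genes were positive. They ranged from -0.48 for RPS15A to 0.31 for RPLP0.

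Over all genes above 1 CPM, the heterogeneous population lay above every clone for 8.14% and below every clone for 9.30%. For 71 of the 72 ribosomal protein genes it lay inside the range of the clones. The exception was RPL13A, at 1551 CPM, where clones ranged from 1006 CPM in clone N through 1306 to 1471 CPM in clone K (log2 difference 0.29, SE 0.22, edgeR adjusted p = 0.746). RPLP0 was at 3451 CPM and RPSA at 2746 CPM in the heterogeneous population, both within the clones' range. RPS27L was at 7.42 CPM, near the lowest clone. The mitochondrial ribosomal protein genes leaned the other way, with 60 of 71 negative and a median of -0.14, where 53.5% of all genes were negative. So did 51 ribosome biogenesis genes, with 48 negative and a median of -0.34. None of either list was called. This library was also the one with macrophage markers, of which 10 of the 11 tested were called higher, and its proliferation score, described next, was the lowest of the 18 at -2.29. The part of either in the values of the ribosomal protein genes was not tested.

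To describe how ribosomal protein mRNA moved with cell division genes, each clone was given a proliferation score, the mean of centred log2(CPM + 0.25) over 22 genes such as MKI67, TOP2A and MCM2, and a slope on this score was fitted to every other gene. The score was 1.57 to 1.84 in clones C, G, L and O and at most 0.62 in the other 13. A slope is the log2 change per unit of the score. It describes covariation of genes in the same libraries, and says nothing of what moved them.

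Of the 72 ribosomal protein genes, 34 had a lower level at higher scores and 1 a higher level (edgeR, adjusted p under 0.05). That is 47.2% lower, where 19.2% of all genes were called lower and 18.3% higher. Slopes were negative for 64 of 72 ribosomal protein genes, compared with 54.0% of all genes, and the medians were -0.10 and -0.02. The call applied to 17 of 42 genes of the large subunit and 17 of 30 of the small subunit. It depended on clones and scaling. With clones C, G, L and O left out no gene was called, with RPS26 the 1 gene at an unadjusted p under 0.05, and 225 genes higher (2.0%) and 55 lower (0.489%) over all genes. The slopes themselves remained negative for 61 of 72, with a median of -0.06 against -0.00453 over all genes, and RPLP0 was at -0.18, RPS26 at -0.16, RPL18 at -0.15 and RPS6 at -0.14. The libraries of clones C and O were the most alike of all pairs. With only clones C and O left out 9 were called, where 10.9% of all genes were called higher and 9.34% lower. With the share of reads outside genes as a covariate 22 of 72 were called lower and 4 higher, where 21.5% and 20.5% of all genes were. The median slope was then -0.06, against -0.02 over all genes. Slopes lay below that of the median gene for 53 of 72, compared with 61 without the covariate. Without clone L 15 were called lower and 2 higher, where 15.2% and 17.2% of all genes were, and without clone O 19 lower and 1 higher, where 13.5% and 14.9% were. Among the 13 clones with lower scores, the mean level of the ribosomal protein genes had an r of -0.293 with the score.

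With library totals in place of TMM scaling, 5 ribosomal protein genes were called, RPS26 and RPLP0 lower and RPL15, RPL23A and RPS15A higher, and calls over all genes shifted to 30.6% higher and 7.78% lower. The median slope of the ribosomal protein genes was then -0.01 and that of all genes 0.06. The gap between the medians was -0.078 with TMM scaling and -0.074 with library totals. It was -0.038 with TMM scaling and the share of reads outside genes as a covariate. The score itself had an r of 0.707 with the TMM factor over the 17 clones. What is common to both scalings is a lower slope of the ribosomal protein genes relative to the median gene. Their direction in absolute terms is not.

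RPS26, a small subunit protein at the mRNA exit channel, had the clearest slope. It was at 45.4 CPM in the lowest clone, L, at 76.5 CPM in the median clone and at 87.0 CPM in clone M, with a slope of -0.22 (SE 0.036, edgeR adjusted p = 0.000112), and its sign was the same under both scalings. RPL37A had a slope of -0.18 (SE 0.038), RPLP0 one of -0.22 (SE 0.045), RPS6 one of -0.15 (SE 0.032) and RPL18 one of -0.17 (SE 0.038). RPL37A, RPS6 and RPL18 no longer passed with library totals. RPLP1 fell by 0.15 per unit and RPS28 fell by 0.19, and neither passed with library totals (-0.07 and -0.11). The slopes of RPSA (-0.09, edgeR adjusted p = 0.109), RPL5 (-0.03, edgeR adjusted p = 0.575) and RPL11 (-0.01, edgeR adjusted p = 0.790) did not pass.

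RPL23A was the gene with a higher level, with a slope of 0.30 (SE 0.068, edgeR adjusted p = 0.00254) on 11 to 43 reads per clone. RPS15A, also poorly counted, had a slope of 0.26 (edgeR adjusted p = 0.0550). RPS27L, RPL6 and RPL17 had slopes of 0.09, 0.05 and 0.05 that did not pass.

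Genes related to the ribosome did not all have slopes of the same sign. FAU, which encodes a ribosomal protein fused to a ubiquitin-like protein, fell by 0.16 per unit of the score. EEF1A1 and GNB2L1, named above for their high r with the mean of the ribosomal protein genes, also had called lower slopes, of -0.17 and -0.16. TPT1, a TOP mRNA that encodes the translationally controlled tumour protein, had one of -0.33. With library totals TPT1 was still called (-0.23), whereas FAU, EEF1A1 and GNB2L1 were at -0.08, -0.08 and -0.07 and did not pass. Of 36 translation factors 5 (13.9%) were called higher, such as EIF5A (0.32) and EIF3B (0.23), and 4 (11.1%) lower, both below the 18.3% and 19.2% of all genes. With library totals 12 of the 36 were called higher and 0 lower, where 30.6% of all genes were called higher and 7.78% lower. HNRNPA1, an RNA-binding protein with a TOP mRNA, was called higher at 0.28. FAU, TPT1 and HNRNPA1 belong to a list of other ribosomal and TOP mRNAs, of which 10 were tested. Slopes were negative for 5 of the 10 and positive for 5, with a median of -0.006 where that of all genes was -0.02. Of the 10, 4 were called lower and 1 higher, and with library totals 1 lower and 5 higher.

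Ribosome assembly factors had slopes of the other sign. Of 51 ribosome biogenesis genes 31 (60.8%) were called higher and 2 lower, with a median of 0.13, and with library totals 39 and 0. FBL, the methyltransferase fibrillarin that modifies ribosomal RNA, had a slope of 0.45 (SE 0.053), NOLC1, a nucleolar phosphoprotein, one of 0.36, POLR1C, a subunit of RNA polymerases I and III, one of 0.27, and RIOK1, a kinase of small subunit maturation, one of 0.22. Of 71 mitochondrial ribosomal protein genes 17 (23.9%) were called higher and 1 lower, with MRPS23 at 0.22 and MRPL51 at 0.20. That share was near the 18.3% of all genes, and with library totals 49 were called higher, where 30.6% of all genes were. Of 12 p53 targets, 10 were called lower, with ZMAT3 at -0.48, and 7 with library totals. With clones C, G, L and O left out, neither the biogenesis nor the mitochondrial list had a call, and 2 of the 12 p53 targets, ZMAT3 and TP53INP1, were still called lower.

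**Figure D5:**
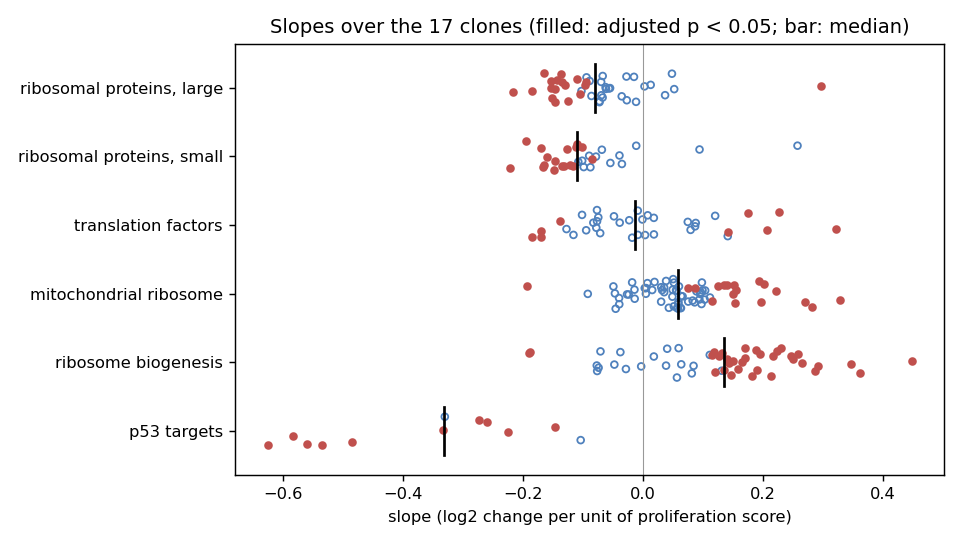
Slope of each gene on the proliferation score over the 17 clones (x axis, log2 change per unit of the score, TMM scaling) for the ribosomal proteins of each subunit and 4 other lists (rows), with filled points for an adjusted p under 0.05 and a bar at each median. The ribosomal protein genes lie mostly left of 0, with medians of -0.08 (large) and -0.11 (small), and the biogenesis genes mostly to the right at 0.13. With library totals the median of the ribosomal protein genes is -0.01.

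Several paralogs outside the list are given here beside the copy they resemble. RPL7L1, a copy of RPL7 that works in large subunit assembly, ranged from 60.5 to 102.7 CPM in the clones and had a called slope of 0.13 (edgeR adjusted p = 0.00606), while RPL7 itself had no reads. RPL36AL had 261% to 422% of the reads of RPL36A, lowest in clone Q and highest in clone C, and a slope of 0.06 (edgeR adjusted p = 0.0351), where RPL36A had one of -0.05 that did not pass. RPS4Y1 had 117% of the reads of RPS4X in clone Q and 265% in clone O, with slopes of 0.13 and -0.07 that did not pass. RPL22L1 had 5.12% of the reads of RPL22 in clone D and 10.8% in clone L, with slopes of 0.02 and -0.04 that did not pass. RPL26L1 had 17.9% of the reads of RPL26 in clone F and 29.1% in clone P. Its slope of -0.01 did not pass, whereas that of RPL26 (-0.10) did. Near-identical copies share sequence, so how their reads were divided is uncertain. The difference between the slopes of a paralog and its copy was not tested.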

How the data were processed

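The authors isolated poly-adenylated RNA from each population, sequenced it with 50-base single-end reads, used STAR (2.3.0e in their processing notes) to align the reads to bosTau7, and took RefSeq annotation release 103 for counting by HTSeq. The deposited values are the raw count of each gene, without normalization. Lines that name no gene (reads outside genes, 18.8% to 26.8% of a file, and ambiguous reads, 0.164% to 0.192%) were left out of every total and test. A table of the whole series (1 file) was not used.

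Counts were tested with edgeR 4.0.16 (TMM, filterByExpr, glmQLFit and glmQLFTest, two-sided, Benjamini-Hochberg over all genes tested) in R 4.3.3. DESeq2 1.42.0 and limma 3.58.1 were alternatives. A single library was assumed to vary as the others do. The 22 genes of the proliferation score were left out of the slope test. Levels and SDs used log2(CPM + 0.25). Libraries of clones C and O were the most alike but differed beyond counting noise, and were counted separately. The chi-square per degree of freedom between them was 4.90, and it was 22.3 for the next closest pair, clones E and F. Clones C and O are both among the clones with high scores, so the slope test treats 2 similar libraries as separate.

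The members and lists were chosen with earlier results of these data known. Named were the 5 members with the largest and the 5 with the smallest SD, those with at most 10 reads, the paralogs, RPLP0, RPLP1, RPLP2, RPSA, RPL5, RPL11 and RPS6, the 5 smallest p for the slope in each direction, and the 5 genes most like the mean. Other lists give counts with up to 4 examples, and the choice of other genes was made after seeing values. A few genes that enter the counts are not reported here by name.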

Additional observations from a re-analysis of the deposited data

How the results depend on the processing

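No paired analysis was possible because the labels give no replicate numbers that clones and the heterogeneous population share. For the heterogeneous population against the clones the count of called ribosomal protein genes was 0 under every setting run, leave-one-out included (0 to 0). For each clone against the others it was 0 with edgeR, 39 at an unadjusted p under 0.05 and 9 with DESeq2. The slope count of 35 became 5 with library totals and, in alternatives chosen after seeing the data, 0 without clones C, G, L and O and 9 without clones C and O (RPL23A higher and 8 lower). It was 26 with the share of reads outside genes as a covariate, 4 of them higher. Leaving out 1 clone at a time gave 17 (without L) to 43, and 20 without O. Other tools, filters and scores gave 27 to 35. The highest over the lowest clone in the share of reads was 1.42, and 1.53 with all reads in the file or 1.54 with TMM-scaled library sizes as the denominator. Leaving out 1 clone gave 1.32 (without N) to 1.42, and the median SD then was 0.183 to 0.215. With library totals the sign of the mean level changed in clones A, E, F, G and M, the negative slopes went from 64 to 43 of 72, and the slope calls went from 1 higher and 34 lower to 3 and 2. The slopes of RPS26, RPL37A, RPLP0, RPS6, RPL18 and RPL23A kept their sign under every setting run. At 11 to 65 reads per clone, RPL17, RPL23A and RPS15A cannot show small differences.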
